A study of Saccharomyces cerevisiae S288C with 8 samples.

Results

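Of 2203 Cse4 peaks called in the cdc7-7 strain that overexpressed Cse4, 676 lay away from the centromeres and had their summit, the base of highest enrichment, between the start and the stop codon of a protein-coding gene. They were chosen by position alone, as peaks that overlap no annotated centromere and whose summit falls inside a gene of the R64 annotation of Saccharomyces cerevisiae. The same list holds 15 centromeric (CEN) peaks and 1512 non-CEN peaks with summits between genes, and the 4 peak lists of the series hold 3243 peaks in all. The 4 strains were cdc7-7 with GAL-CSE4-FLAG (cdc7-7 OE), wild type with GAL-CSE4-FLAG (WT OE), cdc7-7 with endogenous Cse4 and wild type with endogenous Cse4. The labels write GAL-CSE4-FLAG where the study's text writes GAL-FLAG-CSE4. Both OE strains were grown in raffinose and galactose, and both endogenous strains in glucose, so that Cse4 expression and medium changed together. The study's methods give 1.75 hr in the medium and the same formaldehyde crosslinking for all 4 strains. For endogenous Cse4 an HA tag is named in the labels and a Flag tag in the study's text, and anti-FLAG gel was used for every precipitation. Each strain gave 1 ChIP library and 1 input library, with no replicates, so values are described without a test, and an interval given here covers counting error only. The authors called peaks strain by strain, each ChIP library with its matched input.

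Cse4 is the budding yeast CENP-A, the histone H3 variant that marks the centromeric nucleosome on which the kinetochore is built. Cdc7, with its regulatory subunit Dbf4, forms the Dbf4-dependent kinase DDK, which is best known for firing replication origins, and cdc7-7 is a temperature-sensitive allele of the kinase. The study grew these cultures at the permissive temperature of the allele, at which it describes DNA replication as unperturbed. Cse4 made in excess can enter chromatin outside the centromere and is normally limited by ubiquitin-mediated proteolysis, for which Psh1 is a main ubiquitin ligase. In yeast genes the promoter upstream of the start codon is commonly depleted of nucleosomes and is followed by the +1 nucleosome, near which transcription starts, and an evenly spaced array runs on into the coding sequence.

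Most of these summits lay just inside the start codon, some lay just before the stop codon, and few lay deep in the coding sequence. Of the 676 summits, 478 (70.7%) were within 200 bp of the start codon of their own gene, the start-proximal summits. A further 49 (7.25%) lay within 500 bp upstream of the start codon of another gene, 92 (13.6%) of the rest lay within 300 bp of their own stop codon, and 57 (8.43%) were interior. Start-proximal summits can also lie upstream of another gene and were not counted among the 49. For them the lower quartile of the distance to such a start codon was 417.5 bp, so many more than 49 lay within 500 bp. Coding sequence printed from the summit to the gene's nearer end shows how short these distances are. The start-proximal examples below are strong peaks of the group, printed on the coding strand from the start codon, in capitals, to the summit as the last base. Sequences are from the RefSeq R64 assembly.
YCH1, chrVII:905237-905328, plus strand: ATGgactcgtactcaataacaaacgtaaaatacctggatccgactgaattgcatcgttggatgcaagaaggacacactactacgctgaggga
GID7, chrIII:52645-52768, plus strand: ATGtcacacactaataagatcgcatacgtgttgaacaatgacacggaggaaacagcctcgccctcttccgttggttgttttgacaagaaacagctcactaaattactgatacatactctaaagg
STP2, chrVIII:117814-117850, plus strand: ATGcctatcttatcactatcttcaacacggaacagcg
RSC4, chrXI:452201-452228, plus strand: ATGgtagttaagaagcgtaagttggcaa
RSC6, chrIII:214994-215018, plus strand: ATGgtaacacagaccaatccggtcc
CNS1, chrII:549771-549793, plus strand: ATGagctccgttaacgcaaatgg

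At the other end of the gene, these runs begin at the summit and end with the stop codon in capitals.
AXL1, chrXVI:785635-785671, plus strand: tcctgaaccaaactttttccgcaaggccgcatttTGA
SSU1, chrXVI:375144-375169, plus strand: ctctagattttacgcgtttagcaTAA
HO, chrIV:46271-46359, minus strand: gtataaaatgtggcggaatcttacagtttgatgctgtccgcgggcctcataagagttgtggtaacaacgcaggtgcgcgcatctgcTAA
AEP3, chrXVI:550228-550306, plus strand: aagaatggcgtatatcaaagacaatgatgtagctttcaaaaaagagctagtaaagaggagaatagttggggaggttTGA

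Of the interior summits, 3 are shown with 50 bases on each side, on the coding strand, with the 5 bases centred on the summit in capitals.
CLB5, chrXVI:774305-774405, minus strand: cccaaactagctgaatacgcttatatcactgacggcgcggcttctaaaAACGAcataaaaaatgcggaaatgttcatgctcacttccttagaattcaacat
TAF2, chrIII:202542-202642, minus strand: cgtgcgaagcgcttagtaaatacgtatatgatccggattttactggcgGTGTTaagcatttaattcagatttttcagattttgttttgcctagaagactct
EPL1, chrVI:89301-89401, minus strand: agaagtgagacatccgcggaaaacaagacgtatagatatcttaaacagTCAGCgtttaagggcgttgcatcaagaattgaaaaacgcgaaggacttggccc

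Summits of cdc7-7 OE peaks were sparser inside genes than between them. The 676 summits are 30.9% of the 2188 non-CEN peaks of the list (95% Wilson interval 29.0% to 32.9%), whereas 72.8% of the 12071326 nuclear bases lie between a start and a stop codon. This amounts to 76.9 summits per Mb inside genes and 461 per Mb in the remaining sequence. By chromosome, the density inside genes ran from 49.4 per Mb on chromosome I, with 7 summits, to 109 per Mb on chromosome III, with 24. The share of non-CEN summits that lay inside genes was 43.6% on chromosome III and 41.4% on chromosome X, with 25.3% on chromosome VIII as the lowest. Peaks with summits inside genes overlapped an annotated origin (ARS) in 15 cases (2.22%) and a tRNA gene in 8 cases (1.18%), against 59 (3.90%) and 34 (2.25%) of the peaks with summits between genes.

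Summits inside genes lay near the start codon far more often than the share of gene sequence there. Within 50 bp of the start codon lay 216 summits (32.0%), on 3.39% of gene bases. Within 100 bp lay 370 (54.7%), on 6.77% of gene bases, and within 200 bp lay 478, on 13.5%. The median summit was 84.0 bp from its own start codon and 741.5 bp from its stop codon. Within 50 bp of the stop codon were 32 summits (4.73%), close to the 3.39% of bases there. Within 200 bp of it were 157 (23.2%), on 13.5% of gene bases, and some of the 157 in short genes were also near the start. Only 18 summits (2.66%) lay at least 500 bp from both ends, a zone that makes up 43.1% of gene bases. Summits were thus spread over the gene in a steep gradient from the start codon. The last of 5 equal parts of the gene held 16.4% of summits and the last of 10 held 11.8%, neither far above an even share.

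**Figure D1:**
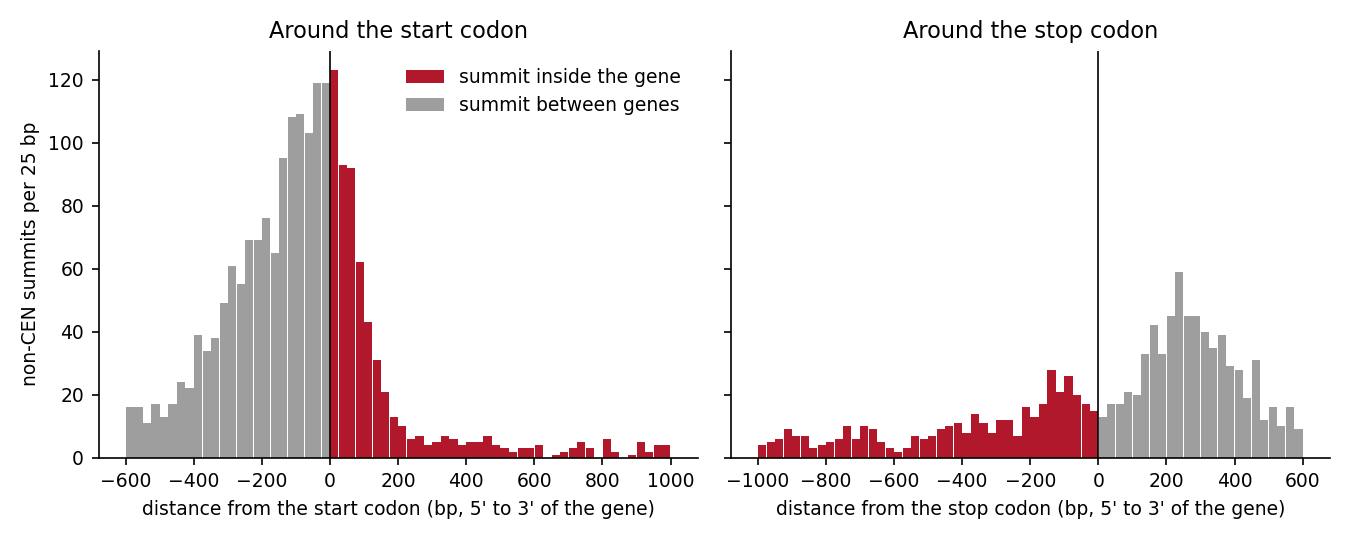
Number of non-CEN summits of the cdc7-7 OE list per 25 bp (y axis) by distance in bp (x axis) from the start codon (left) and the stop codon (right), with summits inside the gene in red and summits between genes in gray. Counts run on across the start codon and drop within the first 200 bp of the gene, which hold 478 of the 676 red summits, and around the stop codon the counts inside and beyond are alike within 150 bp (127 and 121), with more beyond it farther out.

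No gap was seen at the start codon itself. Inside genes, the 3 nearest summits were on the first base of the start codon of STT3, RBP95 and ECM9, with fold enrichments of 1.77, 1.76 and 1.67. Just outside, summits 1 bp upstream of BRE1, ELO2 and NUP2 had fold enrichments of 1.58, 1.57 and 1.54. Within 10 bp of a start codon there were 59 summits inside and 53 outside the gene. The peaks themselves were broader than these distances, with a median width of 449 bp inside genes and 489 bp between genes. As a result, 492 of the 676 peaks (72.8%) also covered the start codon of their host gene, 178 (26.3%) covered its stop codon, and 67 (9.91%) lay wholly inside the gene. Of the 478 start-proximal peaks, 459 covered the start codon.

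When the start codons of all genes were considered, the nearest lay at a median of 83.5 bp from the summit, and for 580 summits (85.8%) it was the host gene's own. It was within 500 bp for 583 summits (86.2%) and farther than 1000 bp for 23 (3.40%). Read along the chromosome, the nearest start codon lay a median of 649.5 bp to the left and 710.5 bp to the right of the summit. The next start codon of another gene that the summit lies upstream of, on either side, was at a median of 920.5 bp. With a divergent neighbor that start codon is on the same side as the host's own, so this median does not describe the far side.

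On a scale from 0 at the start codon to 1 at the stop codon, the median relative position was 0.0954 (95% interval of the median 0.0763 to 0.126). Cut into 5 equal parts from start to stop, the gene held 425 summits (62.9%) in the part at the start, 65, 34 and 41 in the next 3, and 111 (16.4%) in the part at the stop. The same rule applied to the other lists gave 13 of 30 non-CEN peaks with a summit inside a gene in WT OE (43.3%, 27.4% to 60.8%), 118 of 167 in cdc7-7 with endogenous Cse4 (70.7%, 63.4% to 77.0%) and 503 of 795 in wild type with endogenous Cse4 (63.3%, 59.9% to 66.6%). Their median relative positions were 0.585, 0.536 and 0.573 in the same order. Within 200 bp of the start codon lay 478 of 676 summits in cdc7-7 OE, against 2 of 13 in WT OE, 22 of 118 in endogenous cdc7-7 and 80 of 503 in endogenous wild type. The summits inside genes were a smaller share of the cdc7-7 OE list than of each other list, although the WT OE interval includes the cdc7-7 OE share. Those of cdc7-7 OE were the ones gathered at the start codon. The median background over all non-CEN peaks of a list, which follows the depth of the library, was 142 fragments in cdc7-7 OE, 38.4 in WT OE, 70.8 in endogenous cdc7-7 and 195 in endogenous wild type. Strain, Cse4 expression, medium and depth differ between the lists and cannot be told apart here.

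**Figure D2:**
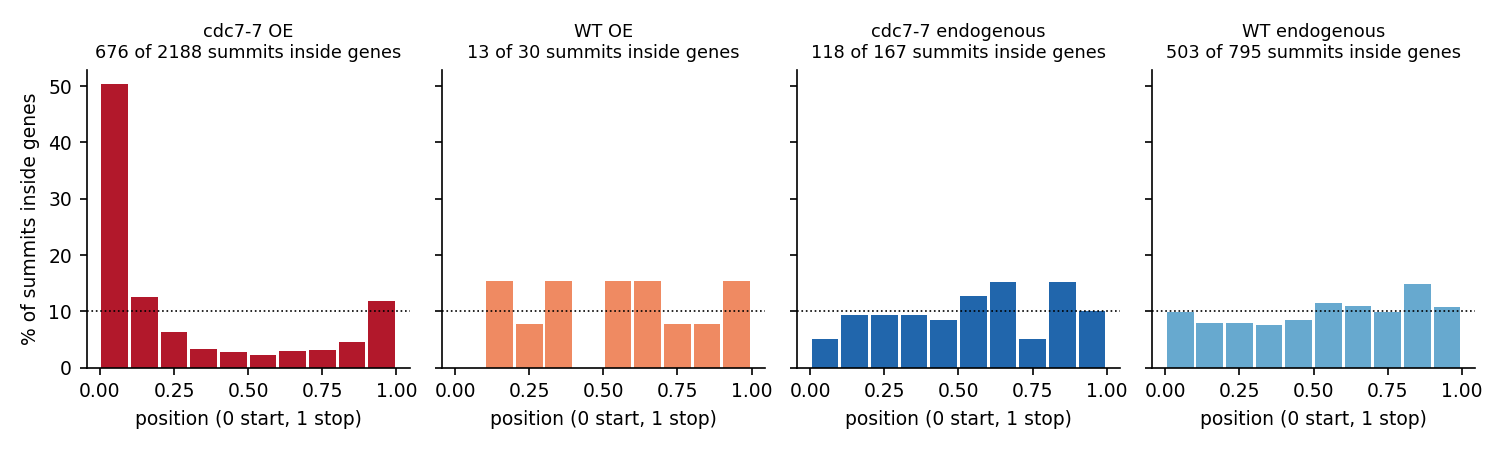
Share of the summits inside genes (y axis, %) in 10 equal parts of the gene from start codon (0) to stop codon (1) in the 4 lists, with cdc7-7 OE in red. The dotted line marks 10%. In cdc7-7 OE the part at the start codon holds 340 of 676 summits (50.3%), and in endogenous wild type it holds 50 of 503 (9.94%).

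The 676 summits fell in 667 genes, 11.1% of the 6002 protein-coding genes. Host genes were of ordinary length, with a median of 1197 bp (1098 to 1308) over the summits and 1200 bp over all genes. Summits placed evenly along gene sequence would sit in longer genes, since the length-weighted median gene is 1899 bp. Of the genes up to 500 bp long, 15.2% held a summit, and in the 5 longer classes the share was from 8.54% to 12.6%. Counted per length, the density was 461 summits per Mb in genes up to 500 bp and 20.6 per Mb in genes over 3000 bp. The shortest host was YMR242W-A, of 90 bp, with its summit 24 bp from the start codon. The longest was UTP20, of 7482 bp, which encodes a component of the small-subunit processome, and there the summit lay 85 bp from the stop codon.

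All of these peaks had modest fold enrichment, the ratio of the ChIP pileup to the local background with 1 added to each. The median was 1.49 (lowest 1.10, highest 2.34), against 1.55 (1.21 to 2.54) for peaks with summits between genes, and the intervals of the medians did not overlap (1.47 to 1.50 inside, 1.54 to 1.57 between). The median pileup at the summit was 214 fragments inside genes and 223 between genes, on backgrounds of 142 fragments in each. A fold enrichment of at least 2 was reached by 21 peaks inside genes (3.11%) and 57 between genes (3.77%), and a -log10 q of at least 5 by 431 (63.8%) and 1152 (76.2%). Among the summits inside genes, the medians were 1.49 near the own start codon, 1.48 upstream of a neighbor, 1.51 near the own stop codon and 1.45 in the interior, with overlapping intervals. Only positions that passed the peak caller's q threshold are in the list. The likeness of these medians therefore does not show how enrichment varied along genes.

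**Figure D3:**
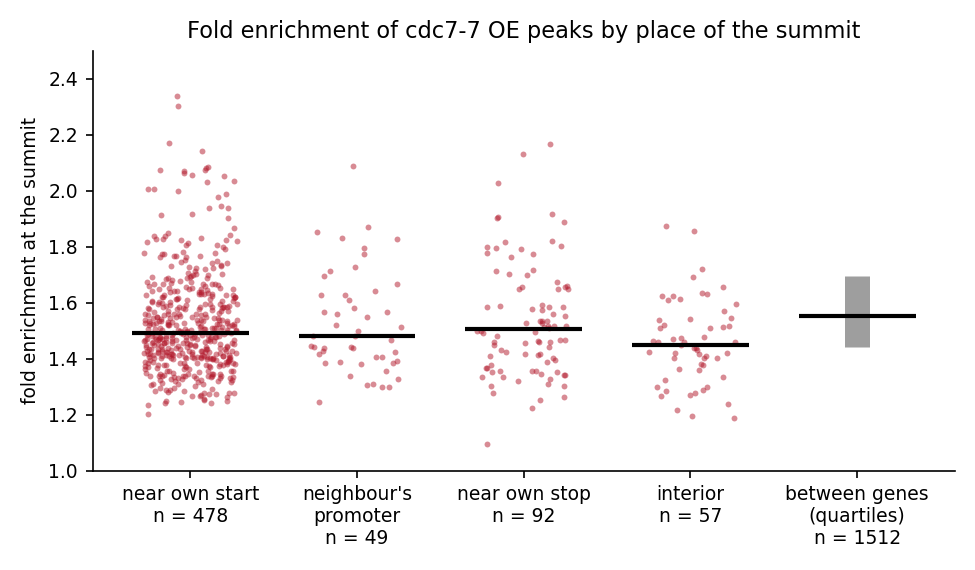
Fold enrichment at the summit (y axis) of each cdc7-7 OE peak with a summit inside a gene, by the place of the summit (x axis), with the quartiles of the peaks with summits between genes as a gray bar, and black lines for the medians. The 4 groups inside genes overlap over nearly their whole range, with medians from 1.45 to 1.51, and the median between genes is 1.55.

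The 10 highest fold enrichments inside genes came from 7 start-proximal summits, 2 near a stop codon and 1 upstream of a neighbor. These counts are near the shares over all 676 summits (70.7%, 13.6% and 7.25%). Of the 10 host genes 5 were at most 500 bp long, where such genes held 136 of the 676 summits. YCH1, which encodes a phosphatase, led with a fold enrichment of 2.34 from 486 fragments at the summit where 207 were expected from the background, at a summit 91 bp from its start codon. GID7, a subunit of the ubiquitin ligase that degrades gluconeogenic enzymes after glucose is added, had 2.08 at 123 bp from its start codon. STP2, a transcription factor that activates amino acid permease genes, had 2.08 at 36 bp. Of the other start-proximal peaks, YMR122C (2.30), YGR039W (2.17), YFR035C (2.14) and YJL028W (2.07) are in genes annotated as uncharacterized, between 312 and 375 bp long, and their summits lay between 96 and 173 bp from the start codon. The summits in YMR122C, YGR039W and YFR035C also lay 413, 345 and 411 bp upstream of the start codons of NCW1, KSS1 and PHO4. The YFR035C summit also lies inside the overlapping gene YFR035W-A, so its host is uncertain.

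In the other 3 of the 10 genes the summit was at the far end. AXL1, the protease that matures a-factor pheromone, had a fold enrichment of 2.17 at 36 bp from its stop codon, and the start codon of the next gene, CTR1, a copper transporter, was 573 bp away. KTR5, a putative mannosyltransferase, had 2.13 at 187 bp from its stop codon, with the histone H4 gene HHF2 converging on it across 166 bp. SSU1, the sulfite efflux pump, had 2.09 at 25 bp from its stop codon and 358 bp upstream of GLR1, which encodes glutathione reductase.

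Near stop codons, the 92 summits were at a median of 127 bp from the stop. Their neighbors are fixed in part by the order of the groups, since summits within 500 bp upstream of another start codon were set apart first. Over all 139 summits within 300 bp of the stop codon and more than 200 bp from the start codon, whatever the neighbor, the next gene ran toward the host in 45 cases (32.4%, 25.2% to 40.5%), against 51.6% of all genes. The median distance to that next gene was 376 bp, against 302 bp over all genes. Start-proximal hosts had a narrow gap upstream, with a median of 347 bp against 443 bp, and 52.5% of them had a divergent upstream neighbor, against 51.7% of all genes.

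Among the 92, strong peaks after AXL1 and KTR5 included BUD31, a spliceosome component, with a fold enrichment of 2.03 at 121 bp from its stop codon. HO, the endonuclease of mating type switching, had 1.92 at 88 bp, and MET28, a regulator of sulfur amino acid metabolism, had 1.91 at 127 bp.

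Summits far from every start codon were rare. Of the 10 farthest, 7 were within 300 bp of the stop codon and 3 were interior. The ranking shuts out summits close to a start codon, and the groups left held 92 and 57 summits. A large distance also needs a long gene, so place and gene length follow in part from the ranking. The farthest was in VPS8, a subunit of the CORVET tethering complex, at 3413 bp from its start codon and 411 bp from its stop codon, with a fold enrichment of only 1.27 from a pileup of 171 fragments. MSH4, a MutS homolog of meiotic crossing over, followed at 2503 bp with 1.43. RPG1, the largest subunit of initiation factor eIF3, was at 2393 bp from the nearest start codon, that of ECM33, with 1.58. CMP2, a catalytic subunit of calcineurin, was at 1687 bp with 1.45. HO was at 1672 bp with 1.92, the highest fold enrichment of the 10, and TFC8, a subunit of the RNA polymerase III factor TFIIIC, was at 1648 bp with 1.26. GRS2, a second glycyl-tRNA synthetase gene, and AEP3, a mitochondrial protein needed for expression of ATP synthase subunits, were at 1641 and 1429 bp with 1.59 and 1.70. SDH9, a succinate dehydrogenase homolog, was at 1387 bp with 1.28.

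The third interior summit of the 10 farthest lay in TAF2, a subunit of the general transcription factor TFIID, 2805 bp from its own start codon and 1418 bp from its stop codon, with a fold enrichment of 1.57 from 189 fragments. Of the 10 it was the farthest from both ends of its gene, and the nearest start codon, that of YCR041W, was 1681 bp away.

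Across the 57 interior summits the median relative position was 0.346, which the unequal limits of 200 and 300 bp at the 2 ends help to set. With 200 bp at both ends, 81 summits had a median position of 0.464 (0.379 to 0.596), an interval that covers the middle of the gene. For the 57, the median distance from the own start codon was 492 bp, and 34 of the 57 peaks (59.6%) lay wholly inside the gene. The strongest was in CLB5, a B-type cyclin that promotes DNA replication, with a fold enrichment of 1.88 at 827 bp from the start codon. ECM32, a helicase, had 1.86 at 3001 bp from its start codon and 364 bp from its stop. EPL1, a subunit of the NuA4 histone acetyltransferase, had 1.62 at 994 bp, in a window where bases are 55.4% A+T. None of the interior peaks reached a fold enrichment of 2.

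In 9 genes, 2 peaks had their summit. In 8 of the 9, 1 of the summits was start-proximal and the other lay farther on. Start-proximal summits were 70.7% of all those inside genes, so most pairs would be expected to include 1. The count therefore does not set these genes apart. HO had summits at 72 bp from the start codon (fold enrichment 1.49) and 88 bp from the stop codon (1.92), 1600 bp apart. SHE1, a spindle-associated protein, had 1.65 at 39 bp from the start and 1.80 at 114 bp from the stop. SNU71, a U1 snRNP component, had 1.54 at 104 bp and 1.76 at 150 bp, and IES1, a subunit of the INO80 remodeler, had 1.31 at 75 bp from its start and 1.48 at 124 bp from its stop.

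The other genes with 2 summits were VPS8, RRN5, BNA2, NUP53 and ATP1. RRN5, a factor for RNA polymerase I transcription, had 1.47 at 167 bp from its start and 1.85 at 70 bp from its stop, where the start codon of PUT1 lies 482 bp ahead. In BNA2 and NUP53 the farther summits had only 1.30 and 1.32. ATP1, the alpha subunit of mitochondrial ATP synthase, was the exception, with summits at 396 bp (1.38) and 1358 bp (1.35) from the start codon.

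Introns held 8 of the 676 summits (1.18%). They lay in YBR090C (fold enrichment 1.83), VPS75 (1.67), GLC7 (1.63), MPT5 (1.59), TMA20 (1.56), REC114 (1.43), SFT1 (1.42) and ARP2 (1.41), and in 4 of these genes the summit was also within 200 bp of the start codon. GLC7 encodes the catalytic subunit of protein phosphatase 1, and its summit was 352 bp from the start codon. The share of gene bases that lie in introns was not determined, so the count of 8 is not read as many or few.

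By function, the hosts were set beside the 11.1% of all genes that held a summit. Kinetochore proteins included 9 hosts of 45 (20.0%), all start-proximal. Their median fold enrichment was 1.50, with 1.99 at SPC25 and 1.61 at NSL1, and MIF2, the CENP-C homolog that binds the centromeric nucleosome, had 1.55 at 47 bp from its start codon. NDC80 and NUF2, which with SPC25 belong to the NDC80 complex that binds microtubules, had 1.39 and 1.46. Of 37 genes for chromatin remodelers, 6 were hosts (16.2%), all with start-proximal summits. These 6 were subunits of the RSC complex, but the list leaves out most subunits of INO80 and SWR1, of which IES1, VPS72 and SWC4 were also hosts. RSC4 had 2.07 at 27 bp from its start codon, RSC6 had 2.03 at 24 bp, and STH1, the catalytic subunit, had 1.59 at 28 bp. Mediator, the coactivator that links activators to RNA polymerase II, had 6 hosts of 25 (24.0%), all start-proximal, led by SSN8 (1.94) and MED7 (1.64).

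Translation factors had 9 hosts of 34 (26.5%), 6 of them start-proximal. The list includes GCN4, a transcription factor whose mRNA is a model of translational control, and without it there were 8 hosts of 33 (24.2%). SUI3, the beta subunit of eIF2, had a fold enrichment of 1.82 at 58 bp from the start codon, and NIP1, a subunit of eIF3, had 1.72 at 4 bp. TIF11, which encodes eIF1A, had 1.79 at 43 bp. FUN12, which encodes eIF5B, had 1.56 at 16 bp. Ribosomal protein genes had 6 hosts of 138 (4.35%). No host was found among 18 hexose transporters and glucose sensors, 10 lysine biosynthesis genes and 91 annotated Ty element proteins. Only uniquely aligned reads were kept by the authors, and the part of this in the Ty count was not tested.

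Of 9 galactose pathway genes 2 were hosts, namely GAL4, the activator of the pathway (1.66 at 26 bp from its start codon), and GAL80, its inhibitor (1.54 at 52 bp). Glycolytic enzymes had 3 of 22 (13.6%), aminoacyl-tRNA synthetases 3 of 19 (15.8%), plasma membrane transporters 4 of 38 (10.5%), cell wall proteins 3 of 44 (6.82%) and heat shock proteins and chaperones 2 of 26 (7.69%). Of 22 genes for Cse4 and its chaperones and degradation factors, 3 were hosts (13.6%), namely CSE4, HIR1 and HIR2, near the share of all genes. The histone chaperone genes HIR2 and HIR1 had 1.85 and 1.42 at 13 and 22 bp from their start codons. Of the 9 cyclin genes only CLB5 was a host. CSE4 itself was the only host among 11 histone genes. Of 587 genes with no named product 72 were hosts (12.3%), close to the share of all genes. Most shares rest on fewer than 10 hosts, and none was tested.

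Codon adaptation, the likeness of a gene's codons to those of ribosomal protein genes, was slightly lower in the hosts than over all genes. The median index was 0.213 (0.208 to 0.219) against 0.220 over 5921 genes. By place of the summit, it was 0.221 near the start codon, 0.196 upstream of a neighbor, 0.197 near the stop codon and 0.2175 in the interior. Hosts by the same rule had a median of 0.531 in WT OE, 0.750 in endogenous cdc7-7 and 0.371 in endogenous wild type, so that the hosts of each other list had a higher median index than those of cdc7-7 OE.

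The bases up to 50 bp on each side of the summit were poorer in A+T than the surroundings. The median was 57.4% A+T inside genes, against 61.4% for summits between genes, 60.4% over coding sequence and 61.7% over the nuclear genome. Within their own host the windows were at a median difference of -1.50 percentage points from the whole gene, and 255 of 676 (37.7%) had more A+T than their gene. By place, the median was 58.4% near the start codon, 55.4% near the stop codon and 57.4% in the interior. Fragment recovery and sequencing can depend on base composition, and its part in the position of the summits was not tested.

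**Figure D4:**
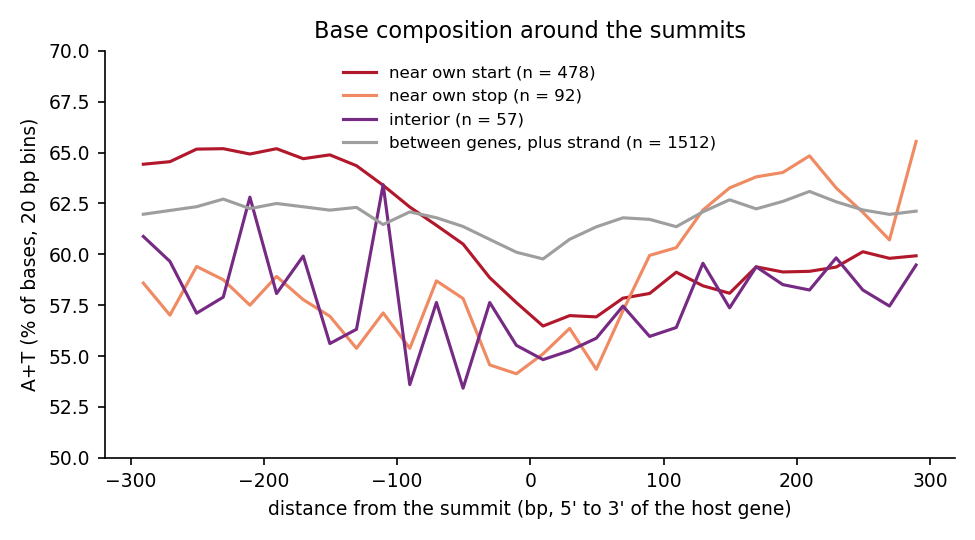
A+T content (y axis, % of bases in 20 bp bins) by distance from the summit in bp (x axis) for summits near the own start codon, near the own stop codon and in the interior, read along the host gene, and for summits between genes, read along the plus strand. The curve of the start-proximal summits drops to 56.5% at the summit, and that between genes is lowest there too, at 59.8%.

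In the same windows the run AAAAAA, searched on both strands, was present at 88 of 676 summits inside genes (13.0%), against 28.7% of summits between genes and 14.2% of all coding windows of that length. TATAAA was present at 6.36%, 11.0% and 7.28% in the same order. TTACCCG, the core of Reb1 sites, was present at 2 summits inside genes (0.296%), against 1.59% between genes and 0.216% of coding windows. ACCCANACA, part of the Rap1 consensus, was present at 2 (0.296%), against 0.331% and 0.215%, and the Gal4 motif CGGNNNNNNNNNNNCCG at 5 (0.740%), against 0.595% and 0.463%. For the A run and the TATA and Reb1 motifs the windows inside genes were closer to coding windows than to windows between genes. The rule that placed these summits inside genes makes their windows largely coding sequence, so this likeness follows at least in part from the rule. The Rap1 and Gal4 motifs were rare in all 3 sets.

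Few of these peaks were called in the other lists. An overlap of at least 1 bp with a WT OE peak was found for 8 of the 676 (1.18%), against 0.86% of the peaks with summits between genes. With a peak of endogenous cdc7-7 it was found for 32 (4.73%), against 3.24%, and with a peak of endogenous wild type for 138 (20.4%), against 17.8%. In all, 529 peaks overlapped no peak of the other lists, 147 overlapped at least 1, and 26 overlapped both endogenous lists. These combined counts were not made for peaks with summits between genes, so they do not set the peaks inside genes apart. Wilson intervals for peaks inside and between genes overlapped in each comparison, and the shares among peaks inside genes were near those between genes. The number of peaks in each list limits these shares, as WT OE holds only 46 peaks.

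The shares varied with the place of the summit. Of the summits near stop codons 31 of 92 (33.7%, 24.9% to 43.8%) lay in a peak that overlapped one of endogenous wild type, and of the interior summits 15 of 57 (26.3%, 16.6% to 39.0%), against 83 of 478 start-proximal ones (17.4%, 14.2% to 21.0%). With endogenous cdc7-7 the shares were 8 of 92 (8.70%), 7 of 57 (12.3%) and 16 of 478 (3.35%) in the same order. For endogenous wild type the interval near stop codons lay above that of the start-proximal peaks and the interior one overlapped it, and for endogenous cdc7-7 the interior interval lay above it (6.08% to 23.2%, against 2.07% to 5.37%).

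**Figure D5:**
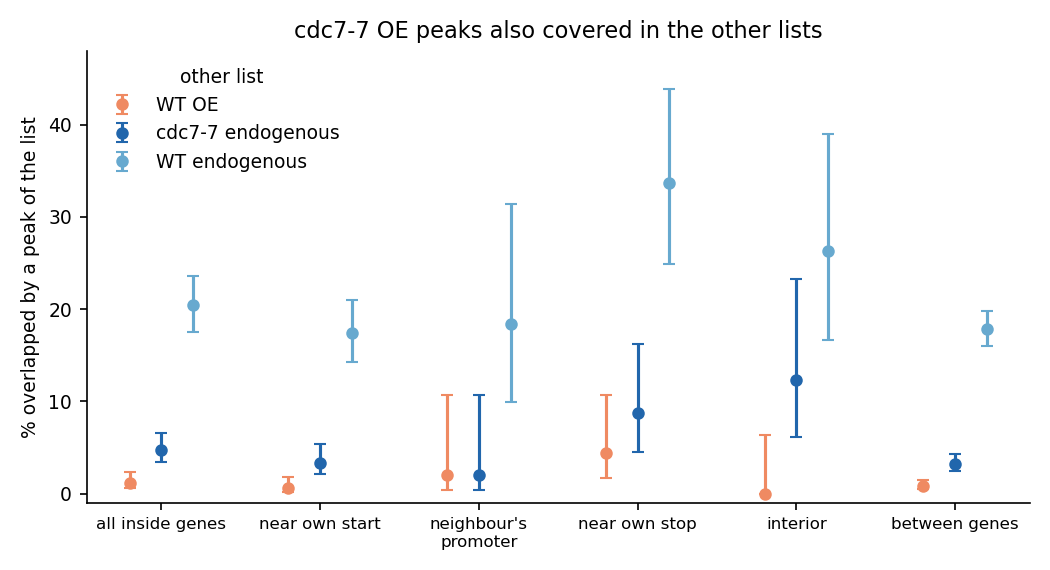
Share of cdc7-7 OE peaks (y axis, %) that overlap by at least 1 bp a peak of WT OE, endogenous cdc7-7 or endogenous wild type, by the place of the summit (x axis), with 95% Wilson intervals. For endogenous wild type the share is 33.7% near stop codons, 17.4% near start codons and 17.8% between genes.

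Summits of shared peaks were close in WT OE and farther apart in the endogenous lists. The median distance between the summit in cdc7-7 OE and that of the overlapping peak was 39.0 bp for WT OE, 150.5 bp for endogenous cdc7-7 and 178.5 bp for endogenous wild type. Summits were within 100 bp of each other in 6 of the 8 overlaps with WT OE, 12 of 32 with endogenous cdc7-7 and 49 of 138 with endogenous wild type, and the other summit was in the same gene in 7, 23 and 82 cases. Seen from the other lists, these peaks overlapped 8 of the 30 non-CEN peaks of WT OE (26.7%), 32 of 167 of endogenous cdc7-7 (19.2%) and 136 of 795 of endogenous wild type (17.1%). Of the 667 host genes, 15.1% were also hosts in endogenous wild type, against 7.83% of all genes. These shared genes were 21.5% of the 470 hosts there, against the 11.1% of all genes that were hosts in cdc7-7 OE. The overlaps with endogenous wild type include 3 with CEN peaks, at DEG1, NIC96 and RPL14B, where a broad CEN peak reached the neighboring gene.

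The 8 peaks shared with WT OE were ATP1, LEU2, YDR524C-B, GCN4, LAA1, ZEO1, PFY1 and AXL1, and 3 of them, YDR524C-B, GCN4 and ZEO1, were covered in every list. ZEO1, a plasma membrane protein that acts in cell wall signaling, had a fold enrichment of 1.82 in cdc7-7 OE, 2.34 in WT OE, 1.82 in endogenous cdc7-7 and 1.73 in endogenous wild type. YDR524C-B had 1.55, 1.94, 1.59 and 1.69 in the same order, with all summits within 91 bp of that in cdc7-7 OE. GCN4, the activator of amino acid biosynthesis genes, had 1.50, 1.95, 1.98 and 2.13, but there the other 3 summits lay 445, 541 and 474 bp from that in cdc7-7 OE. Fold enrichment in WT OE starts from a shallower background and is not on the same footing as in the deeper lists.

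Of the others, AXL1 had 2.17 in cdc7-7 OE, 2.03 in WT OE and 1.46 in endogenous wild type. LAA1, which encodes a partner of the clathrin adaptor AP-1, had 1.42, 1.92 and 1.50 in the same order, with summits 2 bp and 37 bp from that in cdc7-7 OE. PFY1, the actin-binding protein profilin, had 1.65 in cdc7-7 OE and 1.70 in WT OE, at summits 353 bp apart, and the ATP1 summit 279 bp from the stop codon had 1.35 and 2.00.

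Some of these peaks lie in genes that are used as selectable markers in laboratory strains, or in CSE4 itself. At LEU2 the pileup was 1193 fragments where the background was 580, the highest among the solved summits, with a fold enrichment of 2.06 in cdc7-7 OE and of 1.77 in WT OE, where its background of 138 was also high for that list. At URA3 the pileup was 550 over 461, with a fold enrichment of 1.19, and the peak of endogenous wild type there had a background of 554. TRP1 had 1.67 over a background of 171 in cdc7-7 OE and 1.49 in endogenous wild type. The CSE4 peak, 232 bp from the stop codon, had the lowest fold enrichment of the group, 1.10 in cdc7-7 OE, and 1.26 in endogenous wild type over a background of 351, and its pileup could not be solved in cdc7-7 OE. The part of the high backgrounds in these peaks was not tested.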

How the data were processed

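The authors aligned 50-base paired reads to S288C R64 with Bowtie 1.0.0, keeping unique alignments, removed duplicates with Samtools, reduced each input to an equal number of alignments and called peaks with MACS2. The deposited lists give peak position, summit, the fold enrichment over background (a ratio) and -log10 p and q; these are the authors' values. Alignments were not analysed here.

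Summits were placed on the RefSeq R64 annotation, with introns counted as inside the gene. A summit in 2 overlapping genes (5 cases) was given to the gene with the nearer start codon. Pileup and background were solved from fold enrichment and -log10 p and checked on simulated data. Classes were assigned in order: within 200 bp of the own start codon, within 500 bp upstream of another start codon, within 300 bp of the own stop codon, interior. These limits were chosen after values were seen, and members and gene lists with earlier results of these data known. Shares carry 95% Wilson intervals and medians order-statistic intervals. Genes named were the 10 with highest fold enrichment, the 10 farthest from a start codon, those shared with WT OE or every list, those with 2 summits, in introns, at the limits of length or start codon, and up to 4 per list; interior, end and marker genes (LEU2, URA3, TRP1, CSE4, HO), EPL1 and further examples were added after their values were seen. Alternatives were the midpoint, stricter thresholds, deeper summits, other gene sets, overlaps and windows. The counts near stop codons whatever the neighbor, and without GCN4, were added after values were seen. Python 3.11.15, numpy 2.4.6, pandas 2.3.3, scipy 1.17.1 and matplotlib 3.10.9 were used.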

Additional observations from a re-analysis of the deposited data

How the results depend on the processing

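Of 70 alternative values, 43 stayed within the 95% interval of the value reported and 27 moved beyond it. With the peak's midpoint in place of the summit, 545 peaks lay inside genes, of which 415 were also in the group chosen by summit. The share inside was then 24.9%, the median distance to the nearest start codon 98.0 bp and A+T 59.4%. With a -log10 q of at least 5, the share was 27.2%, the median fold enrichment 1.58 and the overlap with endogenous wild type 23.9%. At a minimum of 2 for the fold enrichment, only 21 peaks remained, with a share of 26.9%, a relative position of 0.180, a host length of 1095 bp, overlaps of 9.52%, 14.3% and 52.4% with WT OE, endogenous cdc7-7 and endogenous wild type, a median fold enrichment of 2.07, A+T of 56.4% and a codon index of 0.175. The 81 summits at least 200 bp from both ends were 3.70% of non-CEN peaks, with a relative position of 0.464, host length 1362 bp, 513 bp to the nearest start codon, overlap with endogenous cdc7-7 of 9.88%, fold enrichment of 1.44 and A+T of 56.4%. Requiring 50% of the peak to be covered gave overlaps of 2.37% with endogenous cdc7-7 and 11.5% with endogenous wild type, and requiring the summit inside the other peak gave 3.25% and 14.6%. The wider window around the summit gave 59.8% A+T. Leaving out genes that overlap another gene kept each value within its interval, and so did moving the summit by 1 base or leaving out CEN peaks of the other lists, both chosen after seeing the data. No paired analysis was possible because each condition has 1 library. The cause of these shifts was not tested.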
